A study of Mus musculus with 16 samples.

Results

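The MHC class II presentation genes followed here are Cd74, H2-Aa, H2-Ab1, H2-Eb1, H2-DMa, H2-DMb1 and Ciita, 7 of the 17097 genes measured on the arrays. They were found by gene symbol in the platform annotation, through 14 probe sets that name 1 gene each. RNA came from cardiomyocytes of 16 mice, with 1 array per mouse and 4 mice of each sex and genotype, GPER KO or intact. GPER is the G protein-coupled estrogen receptor. GPER KO mice lack the gene in cardiomyocytes only, and the driver of the deletion is not given in the sources used here. Intact mice, called wild type in the labels, carry the receptor. No group received a treatment, and the labels give an age of 15 weeks for every animal, while the study's methods give a later one. The cells were released from the heart by collagenase perfusion and taken from the ventricles after filtering and slow spins, with no sort for cell type. Below, GPER KO cells and intact cells mean this whole preparation from such mice, not a pure cell type.

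Class II molecules are pairs of an alpha and a beta chain that carry peptides from endosomes to the surface of antigen-presenting cells, where CD4+ T cells read them. The invariant chain, the product of Cd74, guides new pairs to the endosome and fills the groove until proteases trim it to a short remnant. The DM pair then swaps that remnant for a peptide, and CIITA, the protein of Ciita, switches the whole set on. In the heart, macrophages, dendritic cells and B cells are the known carriers of class II, whereas cardiomyocytes are not known for it.

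Of the 7 genes, 5 lie within 197 kb of chromosome 17 (GRCm38.p6, positions 34119693 to 34316674) and the other 2, Cd74 and Ciita, lie elsewhere. Class II promoters are known for an X box, bound by the RFX complex, and a Y box, an inverted CCAAT bound by NF-Y, at a nearly fixed spacing. RefSeq promoter windows were at hand for H2-Aa, H2-Eb1, H2-DMb1 and, with 2 start sites, H2-DMa. The 3 stretches below show that H2-Aa and H2-Eb1, which rose in male GPER KO cells, and H2-DMb1, which was not called, carry the same pair of blocks. Each runs 5′ to 3′ on the strand of the gene from 130 to 21 bases before the RefSeq start site, and capitals mark GNAACT, letters of the X box, followed by ATTGG, the Y box core.
H2-Aa: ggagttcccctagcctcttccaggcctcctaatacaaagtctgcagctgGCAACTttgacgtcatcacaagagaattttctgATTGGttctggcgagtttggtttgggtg
H2-Eb1: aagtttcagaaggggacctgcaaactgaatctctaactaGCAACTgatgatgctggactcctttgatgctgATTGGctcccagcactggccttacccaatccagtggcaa
H2-DMb1: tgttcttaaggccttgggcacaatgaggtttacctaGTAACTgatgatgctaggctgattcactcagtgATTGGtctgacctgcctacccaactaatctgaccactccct
These stretches are chr17:34287844-34287953 on the minus strand for H2-Aa, chr17:34305737-34305846 on the plus strand for H2-Eb1 and chr17:34153061-34153170 on the plus strand for H2-DMb1. The 2 capitalised blocks start 33 bases apart in H2-Aa, 32 in H2-Eb1 and 33 in H2-DMb1. Neither H2-DMa window held the pair within 40 bases. Of all 32851 promoter windows of the same 300 bases, 37.4% held CCAAT on either strand, 42.8% held GNAACT on either strand and 0.676% held GNAACT followed by ATTGG on the strand of the gene within 40 bases. A longer form of the X box, CCTNGNNAC, was in 15.8% of all windows on either strand and, among those of the class II genes, in H2-DMb1 alone. GNAACT and the pair were chosen after the promoters had been read, GNAACT overlaps CCTNGNNAC, and a match says nothing of whether a factor binds there.

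Values are log2 signals after RMA, the authors' normalization, so a difference of 1 is a doubling. Differences are GPER KO minus intact, tested with limma over all genes and called at an adjusted p under 0.05, and the group members are separate animals. Male GPER KO 451 stands apart from the other male GPER KO arrays in Cd74, H2-Aa, H2-Eb1 and macrophage genes, and the male calls are given with and without it. It was singled out by its low values in these same genes. Larger male differences and smaller p without it are therefore built in and add no support. Its array weight was 0.754, beside 0.751 for male GPER KO 444. Female intact 422 had the lowest array weight of all 16 arrays, 0.601, and female intact 421 and 422 were also left out together. On the female arrays the Y-linked genes Eif2s3y, Kdm5d and Uty, whose transcripts are absent there, read 2.24 to 3.06. That is the level of absent transcripts on these probe sets, and it may differ on others. Gper1 read 2.64 to 3.11 over the 16 arrays, close to that level, so the deletion could not be checked in these values. Cardiomyocyte markers averaged 12.38 to 12.48 on every array, and arrays correlated at 0.982 to 0.997.

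In RNA of the male preparations Cd74, H2-Aa, H2-Ab1 and H2-Eb1 all rose with GPER KO, by 1.73 to 2.16-fold. H2-DMa, H2-DMb1 and Ciita were not called. In females the same 4 genes had higher means in GPER KO cells, by 1.31 to 1.61-fold, and none of the 7 passed the threshold after adjustment. The 4 called genes in males stand beside 0.509% of all genes called higher in that comparison, and the 0 in females beside 0.123%. At an unadjusted p under 0.05, 4 of the 7 genes and 2152 of the 17097 genes passed in females. The median difference of the 7 genes was 0.38 in females and 0.79 in males, against -0.02 and 0.01 over all genes.

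Cd74 in females read 5.81, 6.20, 6.01 and 5.88 in GPER KO cells and 5.31, 5.47, 5.39 and 5.35 in intact cells. Cd74 in males read 6.68, 6.74, 6.69 and 6.10 in GPER KO cells, the last being array 451, and 5.26, 5.75, 5.38 and 5.61 in intact cells. Every GPER KO array was above every intact array of the same sex. The mean was 5.98 ± 0.17 in GPER KO females and 5.38 ± 0.07 in intact females (SD, n = 4 each), a difference of 0.60 (SE 0.13, limma adjusted p = 0.0850). In males it was 6.55 ± 0.30 in GPER KO and 5.50 ± 0.22 in intact cells (SD, n = 4 each), a difference of 1.05 (SE 0.13, limma adjusted p = 0.00164). Without array 451 the male difference was 1.20.

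H2-Aa encodes the alpha chain of the I-A pair. In females it read 6.01, 6.26, 6.19 and 6.03 in GPER KO cells against 5.52, 5.83, 5.72 and 5.78 in intact cells. In males it read 6.77, 6.87, 6.71 and 6.12 in GPER KO cells against 5.72, 5.80, 5.61 and 5.86 in intact cells. The genotypes did not overlap in either sex, and array 451 was again the lowest of the male GPER KO arrays. The difference was 0.41 in females (SE 0.13, limma adjusted p = 0.220) and 0.87 in males (SE 0.13, limma adjusted p = 0.00327), where it was 1.04 without array 451.

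H2-Ab1 encodes the beta chain that pairs with it. In females H2-Ab1 read 4.76, 5.01, 4.79 and 4.64 in GPER KO cells against 4.52, 4.65, 4.37 and 4.12 in intact cells. In males it read 5.22, 5.50, 5.57 and 5.05 in GPER KO cells against 4.52, 4.56, 4.46 and 4.64 in intact cells. The groups overlapped in females, by the lowest GPER KO and the highest intact array, and were apart in males. The difference was 0.38 in females (SE 0.12, limma adjusted p = 0.220) and 0.79 in males (SE 0.12, limma adjusted p = 0.00416), where it was 0.88 without array 451.

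H2-Eb1 encodes the beta chain of the I-E pair. In females it read 5.54, 6.02, 5.71 and 5.83 in GPER KO cells against 5.28, 5.12, 4.88 and 5.07 in intact cells. In males it read 6.64, 6.62, 6.53 and 5.40 in GPER KO cells against 5.28, 5.53, 5.00 and 4.92 in intact cells. The groups were apart in females, and in males array 451 fell below the highest intact array while the other 3 were far above it. The difference was 0.69 in females (SE 0.22, limma adjusted p = 0.223) and 1.11 in males (SE 0.22, limma adjusted p = 0.0282). The H2-Eb1 call in males was lost with the male arrays fitted alone (limma adjusted p = 0.127). It was also lost without any 1 of GPER KO 431, 432 and 444 or of intact 430, 452 and 453, at limma adjusted p of 0.0700 to 0.108. Without array 451 the male difference was 1.41 with a limma adjusted p of 8.99e-05. That array held the lowest male GPER KO value, so the smaller p comes with its removal and adds no support to the call.

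**Figure D1:**
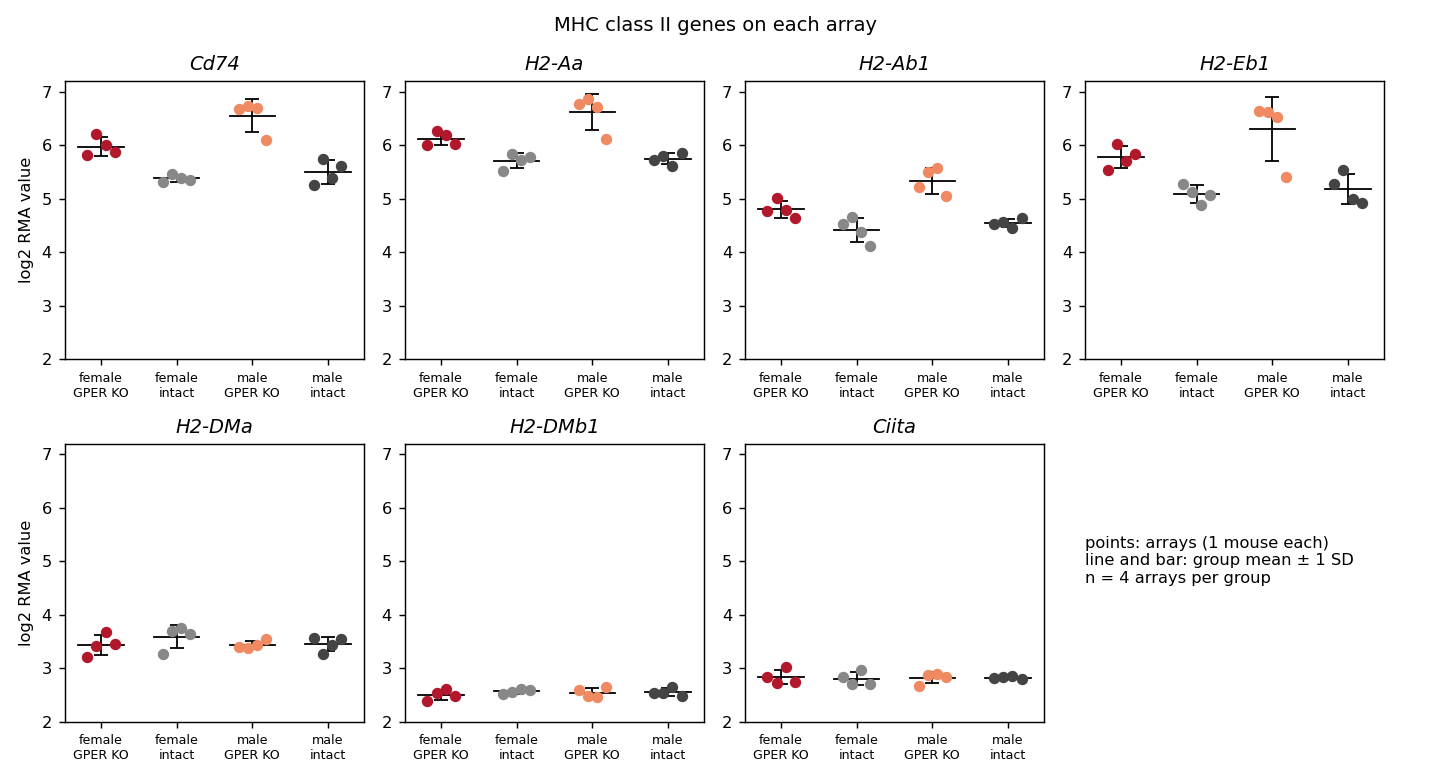
Log2 RMA value of each of the 7 class II genes on each array, with females left of males and GPER KO left of intact mice; points are arrays, the line is the group mean and the bar 1 SD (n = 4). Cd74, H2-Aa, H2-Ab1 and H2-Eb1 have their 3 highest values in male GPER KO arrays, and H2-DMa, H2-DMb1 and Ciita stay between 2.38 and 3.75 on all arrays.

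Groups that do not overlap, with GPER KO above, were seen for 3 of the 7 genes in females (Cd74, H2-Aa and H2-Eb1) and for 3 in males (Cd74, H2-Aa and H2-Ab1). Over all genes that held for 1.95% in females and 4.24% in males. Cd74 and H2-Aa did so in both sexes, as did 0.38% of all genes. Averaged over the sexes, the same 4 genes were called higher, beside 0.825% of all genes. The averaged difference was 0.82 for Cd74 (SE 0.09, limma adjusted p = 0.000227) and 0.64 for H2-Aa (SE 0.09, limma adjusted p = 0.00132). It was 0.59 for H2-Ab1 (SE 0.09, limma adjusted p = 0.00162) and 0.90 for H2-Eb1 (SE 0.16, limma adjusted p = 0.00574). These 4 averaged calls held under each of the 24 alternatives run.

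No class II gene was called in females with all 16 arrays, nor with the female arrays fitted alone. Fitted alone, the limma adjusted p was 0.0543 for Cd74, 0.1 for H2-Eb1, 0.208 for H2-Aa and 0.327 for H2-Ab1. Leaving out 1 male array did change the calls. All 16 arrays share 1 estimate of the spread, and without male GPER KO 451 the female differences were the same but Cd74 (limma adjusted p = 0.0175), H2-Eb1 (0.0288) and H2-Aa (0.0471) passed. These calls depend on leaving out an array picked by its low values in the same genes. Without female intact 421 and 422 the female difference was 0.65 for Cd74, 0.47 for H2-Aa, 0.48 for H2-Ab1 and 0.60 for H2-Eb1, and the lowest of their limma adjusted p was 0.341.

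The remaining 3 genes sat low on the arrays. H2-DMb1, the beta chain of the DM pair, read 2.38 to 2.61 in GPER KO and 2.51 to 2.61 in intact females, and 2.46 to 2.65 in GPER KO and 2.49 to 2.65 in intact males. Ciita read 2.73 to 3.03 in GPER KO and 2.70 to 2.96 in intact females, and 2.67 to 2.90 in GPER KO and 2.79 to 2.86 in intact males. Neither gene was above the highest Y-linked value of 3.06 on any array, so these values do not show whether their transcripts were present. The 95% interval of the difference was -0.19 to 0.06 in females and -0.14 to 0.12 in males for H2-DMb1. For Ciita it was -0.12 to 0.19 in females and -0.16 to 0.16 in males.

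H2-DMa, the alpha chain of the DM pair, was above the highest Y-linked value on all 16 arrays, which had medians of 3.47 to 3.51 over all probe sets. It read 3.21, 3.41, 3.67 and 3.45 in GPER KO females against 3.27, 3.69, 3.75 and 3.65 in intact females. In males it read 3.40, 3.37, 3.44 and 3.54 in GPER KO cells against 3.56, 3.27, 3.43 and 3.54 in intact cells. Both pairs of groups overlapped, and the 95% interval of the difference was -0.38 to 0.07 in females and -0.23 to 0.22 in males. A second probe set for H2-DMa read 3.81, 3.89, 3.47 and 3.44 in GPER KO males against 3.33, 3.45, 3.37 and 3.28 in intact males. Its male difference of 0.30 (SE 0.10) was not called (limma adjusted p = 0.277 over all probe sets) and the main probe set had a male difference of -0.01 (SE 0.11).

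**Figure D2:**
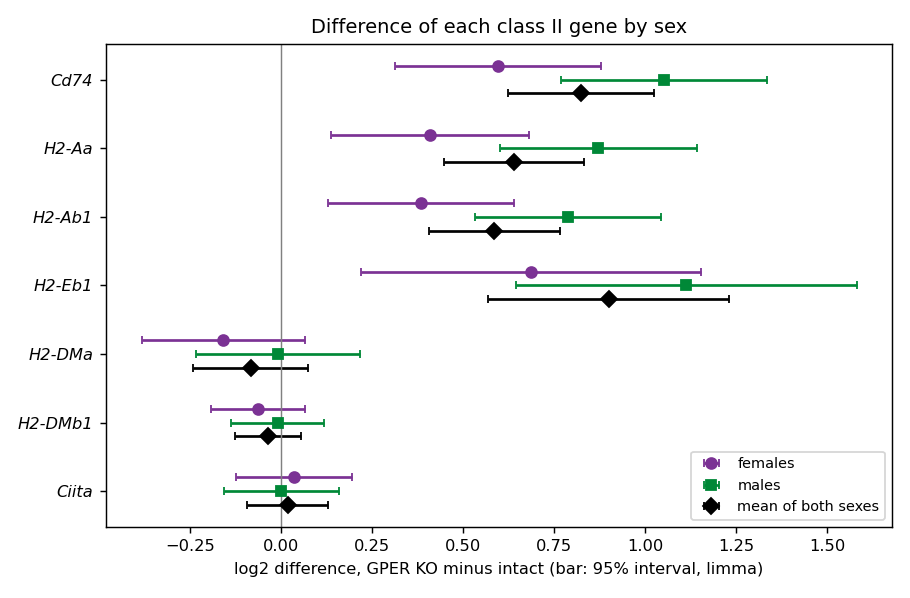
Log2 difference (GPER KO minus intact) of each class II gene in females (circles), males (squares) and as the mean of both sexes (diamonds), with limma's 95% interval. The intervals of Cd74, H2-Aa, H2-Ab1 and H2-Eb1 lie above 0 in each case, before adjustment over all genes, and those of H2-DMa, H2-DMb1 and Ciita include 0.

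The difference itself was compared between the sexes. The male difference minus the female difference was 0.45 for Cd74 (95% interval 0.05 to 0.86), 0.46 for H2-Aa (0.08 to 0.85), 0.40 for H2-Ab1 (0.04 to 0.77) and 0.43 for H2-Eb1 (-0.24 to 1.09). None of the 7 genes was called in this test, with limma adjusted p of 0.426 to 0.930, and 0% of all genes were. At an unadjusted p under 0.05, 3 of the 7 genes passed (Cd74, H2-Aa and H2-Ab1) and so did 1875 of the 17097 genes. The difference between the sexes did not hold after adjustment. Among GPER KO mice, males minus females was 0.58 for Cd74, 0.50 for H2-Aa, 0.53 for H2-Ab1 and 0.52 for H2-Eb1, with limma adjusted p of 0.143 to 0.388. Among intact mice the same differences were 0.12 for Cd74, 0.03 for H2-Aa, 0.13 for H2-Ab1 and 0.10 for H2-Eb1, with limma adjusted p of 0.620 to 0.917. Neither set held a call on the probe sets used in the test, beside 0.0702% of all genes among GPER KO mice and 0.579% among intact mice. A second probe set of H2-Ab1 did pass among GPER KO mice, with males minus females at 0.49 (limma adjusted p = 0.0430 over all 28898 probe sets, of which 0.0588% were called).

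Other probe sets of the same genes were read as a check within the arrays. H2-Ab1 has 2 further probe sets, with male differences of 0.65 (SE 0.08, limma adjusted p = 0.00181) and 0.52 (SE 0.11, limma adjusted p = 0.0425), adjusted over 28898 probe sets, of which 0.353% were called higher. In females the same 2 probe sets had differences of 0.11 (SE 0.08) and 0.11 (SE 0.11), with overlapping groups, against 0.38 on the main one. With the mean of its probe sets the female difference was 0.20 for H2-Ab1 and 0.25 for H2-Aa, so the size of both female differences depends on the probe set. A second probe set for H2-Aa, part of that mean, lies below the highest Y-linked value on every array, at 2.15 to 2.78. Its difference was 0.42 in males (SE 0.07, limma adjusted p = 0.0146 over all probe sets) and 0.16 in females (SE 0.07, limma adjusted p = 0.419). A called difference was thus seen under that value. The third, with the suffix s, ordered the animals in another way. It read 4.92, 5.04, 4.88 and 5.76 in GPER KO males, so that array 451 was the highest, against 3.77, 4.06, 4.69 and 4.86 in intact males. Its difference of 0.81 in males (SE 0.22, limma adjusted p = 0.159) and 0.18 in females (SE 0.22, limma adjusted p = 0.805) was not called. The main H2-Aa and H2-DMa probe sets carry the suffix x, which marks probes that may also match other transcripts. So does a further H2-Ab1 probe set, and the main H2-Ab1 probe set carries the suffix s.

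**Figure D3:**
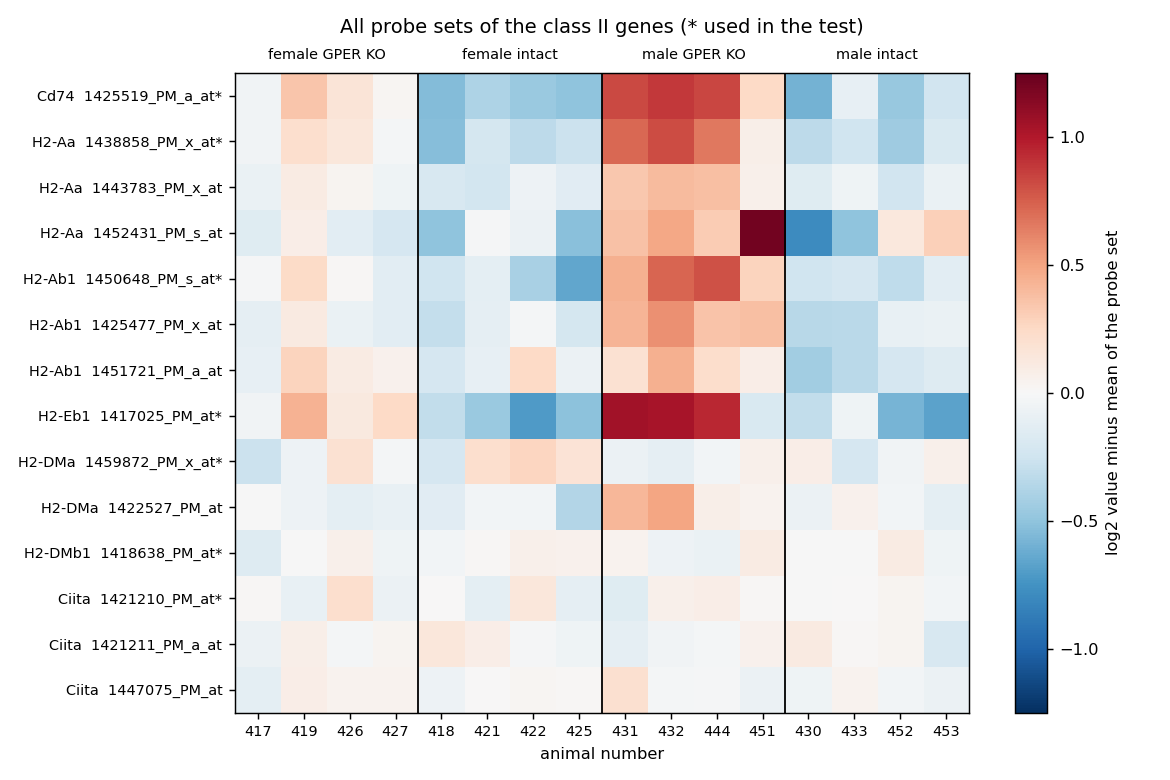
All 14 probe sets of the class II genes on each array, as log2 value minus the mean of that probe set over the 16 arrays; females stand left of males, and GPER KO left of intact, and an asterisk marks the probe set used in the test. Male GPER KO 451 is lower than the other male GPER KO arrays for Cd74, H2-Eb1 and the main H2-Aa probe set, and highest for the H2-Aa probe set with the suffix s.

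Cd74, H2-Aa, H2-Ab1 and H2-Eb1 varied together from array to array. Their 6 pairwise correlations were 0.87 to 0.974 over the 16 arrays, and 0.518 to 0.866 with the 4 group means subtracted. The other 15 pairs among the 7 genes ran between -0.406 and 0.581 over the 16 arrays. With group means subtracted they ran between -0.481 and 0.565, so the 2 ranges then overlapped. These arrays share 1 normalization, and the correlations are given as a description.

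The wider pathway is given by counts of called genes. Of 6 other class II genes, 5 were measured and none was called in either sex. They were H2-Oa and H2-Ob, which form the DO pair that restrains DM, and H2-DMb2, H2-Eb2 and H2-Ea. H2-DMb2 and H2-DMb1 are near copies, and their probes may read both. H2-Ea, the alpha chain that pairs with the product of H2-Eb1, averaged 5.53 in GPER KO and 5.59 in intact females, and 5.68 in GPER KO and 5.80 in intact males. Its male difference was -0.12 (limma adjusted p = 0.645), beside a rise of its partner H2-Eb1 by 1.11. Whether these mice make a functional H2-Ea transcript was not tested.

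Of the 12 transcription regulators none was called. The RFX subunits Rfx5, Rfxap and Rfxank had male differences of 0.01, 0.12 and 0.30, and the limma adjusted p of Rfxank, the lowest of the 3, was 0.197. Nfya of the NF-Y complex had a male difference of 0.10. None of the 7 measured genes on the route from interferon gamma to Ciita was called, with 1 of 7 differences above 0 in males and 2 in females. Over all genes, 9654 of 17097 differences were above 0 in males and 7050 in females. Ifng, the cytokine itself, read 2.46 to 2.78 and was on no array above the Y-linked level. The receptor chains Ifngr1 and Ifngr2 had male differences of -0.10 and -0.08.

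Among the pathway lists, the other calls were 2 genes of endosomal processing and 1 class I gene, beside 0.509% of all genes called higher in males. Of 13 endosomal genes measured, Ctss and Ctsz rose in males and none was called in females. Differences above 0 numbered 12 of 13 in males and 9 in females, beside 9654 and 7050 of all 17097 genes. Ctss, the protease cathepsin S that trims the invariant chain in antigen-presenting cells, averaged 6.41 ± 0.60 in GPER KO and 5.11 ± 0.39 in intact males (SD, n = 4 each). Its difference was 1.30 (SE 0.26, limma adjusted p = 0.0320) in males and 0.66 (limma adjusted p = 0.324) in females. Ctsz, the carboxypeptidase cathepsin Z, averaged 6.23 ± 0.14 in GPER KO and 5.41 ± 0.31 in intact males (SD, n = 4 each), a difference of 0.81 (SE 0.17, limma adjusted p = 0.0439). Without array 451 the male difference of Ctss was 1.59 (limma adjusted p = 0.00227), and that of Ctsz was 0.88 and no longer called (limma adjusted p = 0.0531). The cathepsins Ctsl, Ctsb, Ctsd and Ctsh had male differences of 0.14 to 0.21 and were not called.

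Of 14 class I genes, 11 were measured. Psmb10, an immunoproteasome subunit, averaged 7.45 ± 0.10 in GPER KO and 7.10 ± 0.14 in intact males (SD, n = 4 each), a difference of 0.34 (SE 0.07, limma adjusted p = 0.0410). Without array 451 it was 0.36 and no longer called (limma adjusted p = 0.0669). The heavy chains H2-K1 and H2-D1 had male differences of -0.09 and -0.24, Tapbp 0.10 and Psmb8 -0.19, none called. The median of the class I genes was -0.08 in males. None of the 6 costimulation genes was called. Cd80 and Cd86, the ligands of CD28, had male differences of 0.12 and -0.04, and Cd40 and Icosl had -0.12 and 0.02. The cytokines Mif and Ddt, which bind CD74 at the cell surface, had male differences of 0.25 and 0.01. Cd44, the signalling partner of CD74, had 0.48 (limma adjusted p = 0.422), and none of the 4 measured genes of that list was called.

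**Figure D4:**
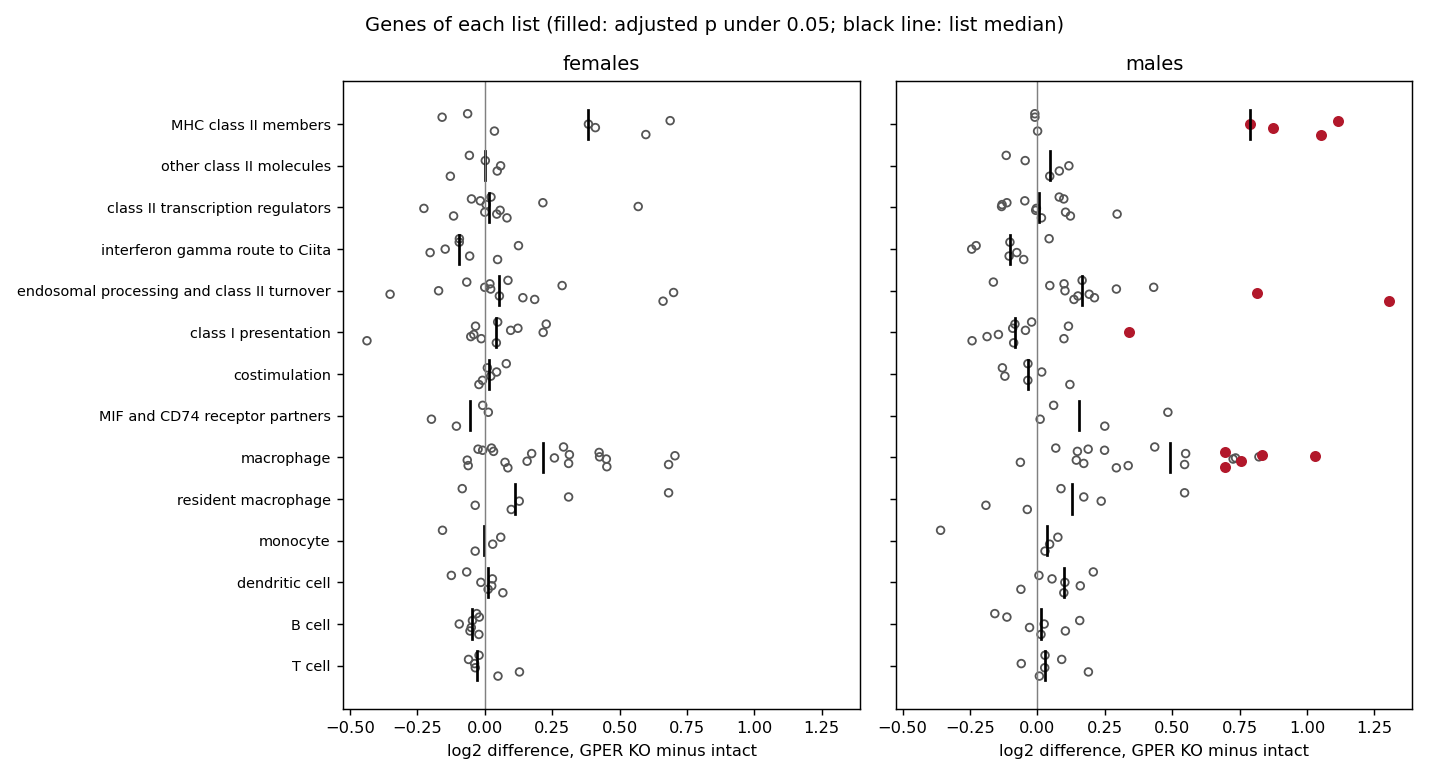
Log2 difference (GPER KO minus intact) of each measured gene in the class II genes, 7 related pathway lists and 6 immune cell marker lists, in females (left) and males (right). Filled points passed an adjusted p under 0.05 and black lines are list medians; filled points are confined, among the lists shown, to males and to the class II, endosomal, class I and macrophage lists.

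Among the lists of cell markers, the macrophage list alone held called genes. All 20 macrophage markers were measured, and 5 were called higher in males (Cd68, Fcgr3, Lyz2, Tyrobp and Mpeg1) and 0 in females, beside 0.509% and 0.123% of all genes. Of the 20 differences, 19 were above 0 in males and 16 in females, beside 9654 and 7050 of all 17097 genes. The median of the list was 0.49 in males and 0.22 in females. Without array 451 the same 5 were called in males and the median was 0.63. The summed linear signal of the list was 630 to 780 in GPER KO and 471 to 593 in intact females. In males it was 1180, 1060, 1250 and 722 in GPER KO cells, the last being array 451, and 539, 592, 585 and 826 in intact cells, the last being array 453. The genotypes were apart in females, as 1.95% of single genes were in that direction, whereas in males array 451 was below intact array 453. Of these markers Aif1 was on no array above the Y-linked level, while Csf1r averaged 5.57 in GPER KO and 5.23 in intact males and Adgre1 averaged 4.54 in GPER KO and 4.25 in intact males. Array 453 had H2-Aa at 5.86 and H2-Ab1 at 4.64, the highest of the intact males, Cd74 at 5.61, the second highest, and H2-Eb1 at 4.92, the lowest. The part of macrophage RNA in the class II differences was not tested. In RNA of a mixed preparation, more cells of a type and more RNA per cell cannot be told apart.

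No marker of the other known class II carriers was called. Of 10 dendritic cell markers, 7 were measured, with a median difference of 0.10 in males and 0.01 in females. Their summed linear signal was 138 to 144 in GPER KO and 133 to 152 in intact females. In males it was 136 to 143 in GPER KO and 130 to 135 in intact cells, and these groups did not overlap. Of single genes, 4.24% were apart in that direction in males. Of 8 B cell markers, 7 were measured, and the sums overlapped in both sexes at 63.9 to 72.2 in GPER KO and 66.6 to 73.6 in intact cells. None of the 10 measured cardiomyocyte markers was called, and their median difference was -0.01 in both sexes.

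Fibroblast and endothelial markers also shifted in median with genotype, with none called. The 9 fibroblast markers had a median difference of 0.19 in males and 0.20 in females, with 5 and 7 of 9 above 0. Over all genes, 9654 of 17097 were above 0 in males and 7050 in females. Their summed linear signal was 859 to 1190 in GPER KO and 626 to 959 in intact females, and 747 to 1670 in GPER KO and 802 to 1260 in intact males, with array 451 the lowest male. Col3a1, a fibrillar collagen, had a male difference of 1.18 (limma adjusted p = 0.213), and the one marker never above the Y-linked level was Col1a2. All 14 endothelial markers had differences below 0 in both sexes, with medians of -0.35 in males and -0.27 in females. Their sum was 1580 to 2480 in GPER KO and 1920 to 2610 in intact females, and 1390 to 2650 in GPER KO and 2070 to 3470 in intact males, so the groups overlapped. Such sums weigh bright genes most, here Fabp4 at 9.60 to 11.19. The mean log2 value of the list overlapped too. It was 5.59 to 6.01 in GPER KO and 5.83 to 6.29 in intact females, and 5.62 to 6.16 in GPER KO and 5.80 to 6.50 in intact males. Over the 16 arrays the mean z-score of the 7 class II genes followed the macrophage list at r = 0.799, the fibroblast list at 0.676, the dendritic cell list at 0.619 and the endothelial list at -0.104. With group means subtracted the order changed, to 0.419 for macrophage, 0.537 for fibroblast, 0.604 for dendritic cell and 0.472 for endothelial markers. That score gives the low genes H2-DMa, H2-DMb1 and Ciita the same weight as the others. The order thus need not hold for Cd74, H2-Aa, H2-Ab1 and H2-Eb1. Their own r is given below for the macrophage list only. The part of dendritic cell, B cell, fibroblast and endothelial RNA in the class II differences was not tested.

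Cd74 followed the mean of the macrophage markers over the 16 arrays at r = 0.879 (rho = 0.888), H2-Aa at r = 0.882 (rho = 0.897), H2-Ab1 at r = 0.848 (rho = 0.856) and H2-Eb1 at r = 0.779 (rho = 0.665). With group means subtracted, r was 0.642 for Cd74, 0.661 for H2-Aa, 0.443 for H2-Ab1 and 0.377 for H2-Eb1. Array 451 was the lowest of the male GPER KO arrays in both measures. These are descriptions over arrays that share 1 normalization and the same 4 groups.

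**Figure D5:**
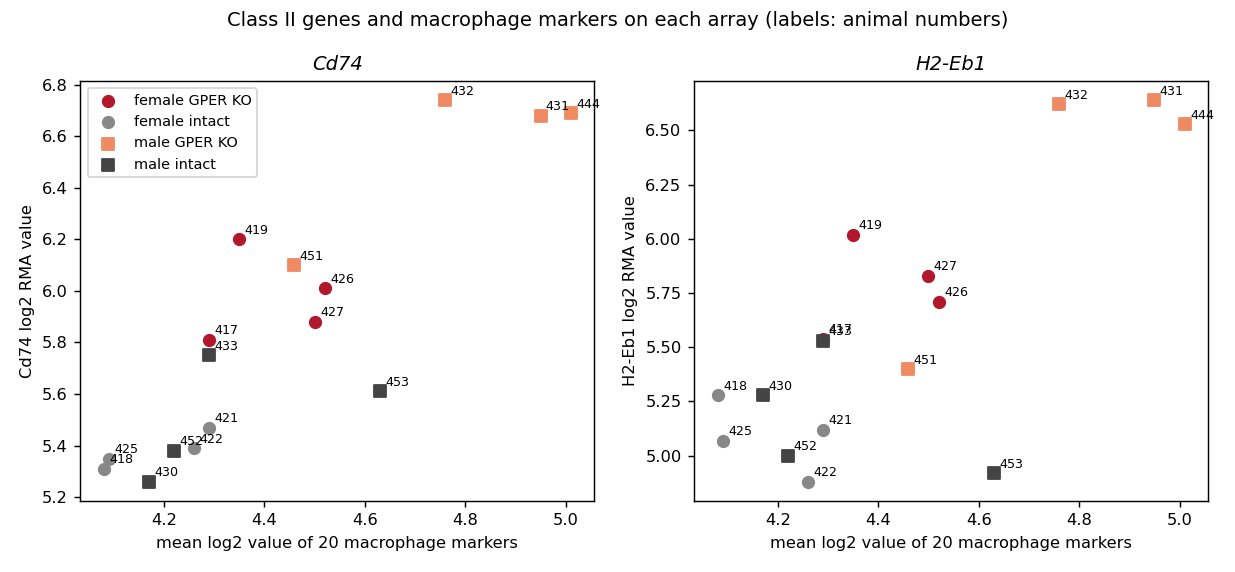
Log2 RMA value of Cd74 (left) and H2-Eb1 (right) against the mean log2 value of 20 macrophage markers on each array; circles are females, squares males, red and orange GPER KO, greys intact, and labels give animal numbers. Male GPER KO 431, 432 and 444 are high on both axes, GPER KO 451 lies lower on both, and male intact 453 is high in macrophage markers (4.63) with H2-Eb1 at 4.92.

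The genes whose pattern over the 16 arrays was most like that of the 7 genes were ranked by Pearson's r to their mean z-score, which gives the 3 low genes the same weight as the others. Among 12488 candidates the first were Timp1 (r = 0.881), an inhibitor of matrix metalloproteinases, Gpx3 (0.878), a secreted glutathione peroxidase, and Pfkp (0.872), a phosphofructokinase. Lyz2 (0.865), the lysozyme of myeloid cells, Lcn2 (0.859), an iron-carrier binding lipocalin, Ctsz (0.859) and Ccl8 (0.853), a chemokine, came next. Mmp23 (0.852), Tmem176a (0.846) and Ppp1cc (0.835), a catalytic subunit of protein phosphatase, completed the 10. With group means subtracted, the 10 highest were Cgnl1, Ms4a13, Gkn3, Coprs, Ccdc3, Gpx3, AI661453, Gdf9, Usf1 and Tgfb3, at r of 0.818 to 0.888, and Gpx3 alone was in both rankings.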

How the data were processed

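The series holds RNA of ventricular cardiomyocytes on Affymetrix GeneAtlas MG-430 PM arrays, 1 per mouse and 4 per group. According to the submitters' processing notes the authors used RMA and Partek, with no version given, and they deposited a log2 value for each probe set. In its usual form RMA corrects background and applies quantile normalization, which sets arrays to a like distribution (medians here 3.47 to 3.51). Scanner signals were not used here. Precision is limited by the number of arrays.

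Gene names are those of the platform annotation, with symbols updated to RefSeq GRCm38.p6 (28689 of 28898 probe sets with 1 gene matched through Entrez identifiers). Of 45141 probe sets, 551 with several genes and 15692 with none were left out. Of a gene's probe sets the one with the highest mean was tested by limma 3.58.1 under R 4.3.3, with lmFit, then contrasts.fit, then eBayes, fitting 4 group means to 16 arrays, with Benjamini-Hochberg adjustment over 17097 genes. The test was checked on simulated data. Named genes were the 7 members, all called genes and up to 4 others of each pathway list, called markers, the 10 most alike by each of 2 measures among genes above the 40th percentile, and Gper1. Csf1r, Adgre1, H2-Ea and Col3a1 were named in addition, after their values were seen. Promoters are from RefSeq GRCm38.p6, and the windows of H2-Ab1 and Ciita are not analysed here. The 7 members and all lists were chosen with earlier results of these data known. Alternatives were the mean of the probe sets, every probe set, a filter at the 40th percentile on at least 4 arrays, quantile normalization again, median centring, array weights, a trended robust variance, 1 sex alone and each array left out. The omission of female intact 421 and 422 together, and of male GPER KO 451 for the list genes, was added after seeing the data.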

Additional observations from a re-analysis of the deposited data

Results flagged for a closer look

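Among 56 groups of 4 arrays, over the 14 probe sets of the class II genes, 4 held an array whose gap to the nearest of the others took nearly the whole range of its group (Dixon's criterion), and chance marks about 1 in 20 groups. Of these, 3 concern male GPER KO 451. Its Cd74 value was 6.1, against 6.68 to 6.74 in the other male GPER KO arrays. Its H2-Eb1 value was 5.4, against 6.53 to 6.64, and its value for the dim H2-Aa probe set was 2.45, against 2.72 to 2.78, all under the highest Y-linked value of 3.06. The same array had the lowest summed macrophage signal of the male GPER KO arrays, 722 against 1060 to 1250 in the others, and the part of this in its class II values was not tested. The fourth concerns a Ciita probe set not used in the test, at 2.74 in female intact 418 and 2.81 to 2.83 in the other female intact arrays, all under the highest Y-linked value.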

How the results depend on the processing

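No paired analysis was possible because the animal numbers are unique and no label pairs the animals. Over the alternatives, 646 of the values of single class II genes kept their direction and their side of the threshold, 22 changed sign, 7 lost the call and 3 gained it. The 7 losses all concern H2-Eb1 in males and the 3 gains all concern females without male GPER KO 451. The number of class II genes called in females was 0, with a range of 0 to 3 as each array was left out. In males it was 4, with a range of 3 to 4 as each array was left out and 3 with the male arrays alone. All genes called in females numbered 48, against 13 with females alone, 10 without female intact 421 and 422, and 20 to 159 as each array was left out (159 without female intact 425). In males they numbered 106, against 181 with array weights, 66 with males alone, and 53 to 120 as each array was left out. All changes of sign were of small values with no call. For Ciita in males the difference was -0.0014 with quantile normalization again, -0.00103 with median centring, -0.0198 with array weights and -0.0258 to 0.0509 as each array was left out. Ciita ranged from -0.027 to 0.0895 in females, from -0.0132 to 0.0451 averaged and from -0.0888 to 0.0277 between the sexes as each array was left out, the last being 0.0075 with the mean of the probe sets. H2-DMa was 0.144 in males and 0.05 averaged with the mean of the probe sets, and -0.0699 to 0.0271 in males as each array was left out. H2-DMb1 in males ranged from -0.044 to 0.0226 as each array was left out. The cause of these shifts was not tested. Signal limits Ciita and H2-DMb1, which the filter on low values removes. Array strips and processing days are not given in the sources used here, so a batch was not tested.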
